A study of Bos taurus with 72 samples.

Results

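ACTB (ENSBTAG00000026199) and GAPDH (ENSBTAG00000014731) were followed through whole-blood RNA-seq of feedlot cattle. They are 2 of the 24616 genes in the count table, taken by their bovine Ensembl identifiers, and both passed the filter on low counts that left 12655 genes for testing. The samples are 72 poly-A selected libraries from the same 24 male beef cattle, each bled into PAXgene tubes at the stages labelled entry, pulled and close-out. Bovine respiratory disease is the subject in the series title. The labels give no age, treatment, diagnosis or date for an animal. Healthy cattle bled at the same times are not analysed here, so age and time on feed go along with stage. Only animals whose RNA passed an integrity limit at every stage were sequenced, per the labels' protocols.

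ACTB encodes beta-actin, the cytoplasmic actin that builds the filaments behind the shape and movement of white blood cells. GAPDH encodes the glycolytic enzyme glyceraldehyde-3-phosphate dehydrogenase, and glycolysis is the main energy source of neutrophils and of activated lymphocytes. Both are long-used reference genes in quantitative PCR: the signal of a target gene is divided by that of the reference, so any change in the reference passes into every result. ACTB has a near-identical paralog in cytoplasmic gamma-actin and GAPDH has many processed pseudogenes, so reads could have been shared with other loci in the counting.

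Total counts per library ran from 8.24 to 29.1 megareads (M), with a median of 17.2 M. ACTB was counted 30312 to 219681 times per library and GAPDH 12437 to 85913 times. Counting error at the lowest of these counts is 0.574% for ACTB and 0.897% for GAPDH, far under the spread between animals described below, and it covers counting only. A pair of libraries went against their labels. The library labelled pulled of animal 9 was near-identical to the entry library of animal 11: their chi-square per degree of freedom was 1.46, against 29.1 for the next closest of 2556 pairs. Animal 12 was checked over 100 genes that differ stably between animals, picked in the animals other than 9 and 12. High same-animal correlations in those animals therefore come with the choice. Over these genes the library labelled pulled of animal 12 correlated with its own entry and close-out libraries at -0.0022 and -0.12. Outside the doubted libraries the lowest correlation among 68 same-animal pairs was 0.546. The highest between different animals was 0.598. Values of both doubted libraries stood inside the range of the other pulled libraries. Levels of ACTB in log2 CPM (CPM, counts per M reads counted) were 11.99 (labelled pulled of animal 9) and 12.25 (labelled pulled of animal 12). Those of GAPDH were 10.88 and 11.34. In animal 11 at entry, ACTB stood at 11.97 and GAPDH at 10.87. Results without both are given where they differ. Counts of animals higher or lower include both throughout.

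Over all 24 animals, neither gene changed past the test between any 2 stages. ACTB averaged 12.11 ± 0.32 log2 CPM in the entry libraries, 12.23 ± 0.38 in the pulled ones and 12.14 ± 0.56 in those of close-out (SD, n = 24; scaled by TMM, edgeR's trimmed mean of M-values). The single libraries ran from 11.56 to 12.88 at entry, from 11.56 to 13.02 at pulled and from 11.32 to 13.13 at close-out, so the stages overlapped. GAPDH averaged 10.72 ± 0.62 log2 CPM at entry, against 11.05 ± 0.53 when pulled and 10.95 ± 0.64 at close-out (SD, n = 24). Its libraries ran from 9.52 to 12.06, from 10.00 to 11.95 and from 9.91 to 12.29, which also overlapped. In whole blood, fewer cells of a type and less RNA per cell cannot be told apart in these levels. No gene lengths of the build were used, so levels of ACTB and GAPDH are not compared with each other.

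In edgeR's quasi-likelihood test with the animal as a block, ACTB was 0.09 log2 units higher at pulled than at entry (95% interval -0.16 to 0.34, adjusted p = 0.559), with 16 of 24 animals higher. GAPDH was 0.28 higher at pulled (interval -0.09 to 0.64, adjusted p = 0.211), with 18 of 24 animals higher. Of all genes tested, 42% were called in that comparison, and 17.9% of genes moved less than ACTB and 50.2% less than GAPDH. From entry to close-out the fold changes were 0.03 for ACTB (interval -0.23 to 0.28, adjusted p = 0.885) and 0.18 for GAPDH (interval -0.18 to 0.55, adjusted p = 0.465), where 22.2% of all genes were called. From pulled to close-out they were -0.06 for ACTB (interval -0.32 to 0.19, adjusted p = 0.746) and -0.09 for GAPDH (interval -0.45 to 0.27, adjusted p = 0.744), where 27.2% were called. These intervals leave room for a change of GAPDH of up to 0.64 log2 units, which is as many qPCR cycles at perfect doubling, so the missed threshold does not show equal levels.

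The pooled means held opposite movements in different animals. At entry the libraries fall into separate sets that follow the number in the library title: 6 animals, numbered 2 to 7 in the labels, have title numbers above 100, and the other 18 have numbers up to 98. This division came from earlier results on these libraries, and the study did not set it up. The tests by set therefore describe these animals and are no independent evidence. The labels do not say what the number stands for.

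At entry, ACTB in the 6 animals stood at 12.51, 12.35, 12.37, 12.88, 12.35 and 12.48 log2 CPM (animals 2 to 7). In the 18 animals it ran from 11.56 through a median of 11.98 to 12.37. In these values 3 of the 6 lay above all 18, and 17 of the 18 lay below all 6. GAPDH in the 6 animals stood at 11.76, 11.82, 11.12, 12.06, 11.36 and 11.42 log2 CPM. In the 18 it ran from 9.52 through 10.42 to 10.87, so the sets did not overlap. Of all genes tested, 71.8% were called between the sets at entry (edgeR). How many of them had sets that did not overlap was not counted. The separation is thus not shown to be particular to ACTB or GAPDH.

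After entry the means of the sets stood the other way round. At pulled, ACTB in animals 2 to 7 stood at 12.48, 12.30, 11.76, 11.70, 11.56 and 11.73 log2 CPM, and GAPDH at 11.71, 10.00, 10.53, 10.29, 10.02 and 10.73. Animal 2 alone stayed near its entry level in both genes. The 18 animals had means of 12.33 ± 0.34 for ACTB and 11.22 ± 0.37 for GAPDH (SD, n = 18), above the means of the 6, which were 11.92 ± 0.38 and 10.55 ± 0.64 (SD, n = 6), with overlapping ranges. At close-out, ACTB in the 6 stood at 11.88, 11.55, 11.91, 11.63, 11.47 and 11.87, and GAPDH at 10.84, 10.47, 10.72, 10.40, 10.12 and 10.82. All 6 were then below their own entry level in both genes. The 18 had close-out means of 12.28 ± 0.57 for ACTB and 11.08 ± 0.68 for GAPDH (SD, n = 18), and their ranges, 11.32 to 13.13 and 9.91 to 12.29, enclosed those of the 6.

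**Figure D1:**
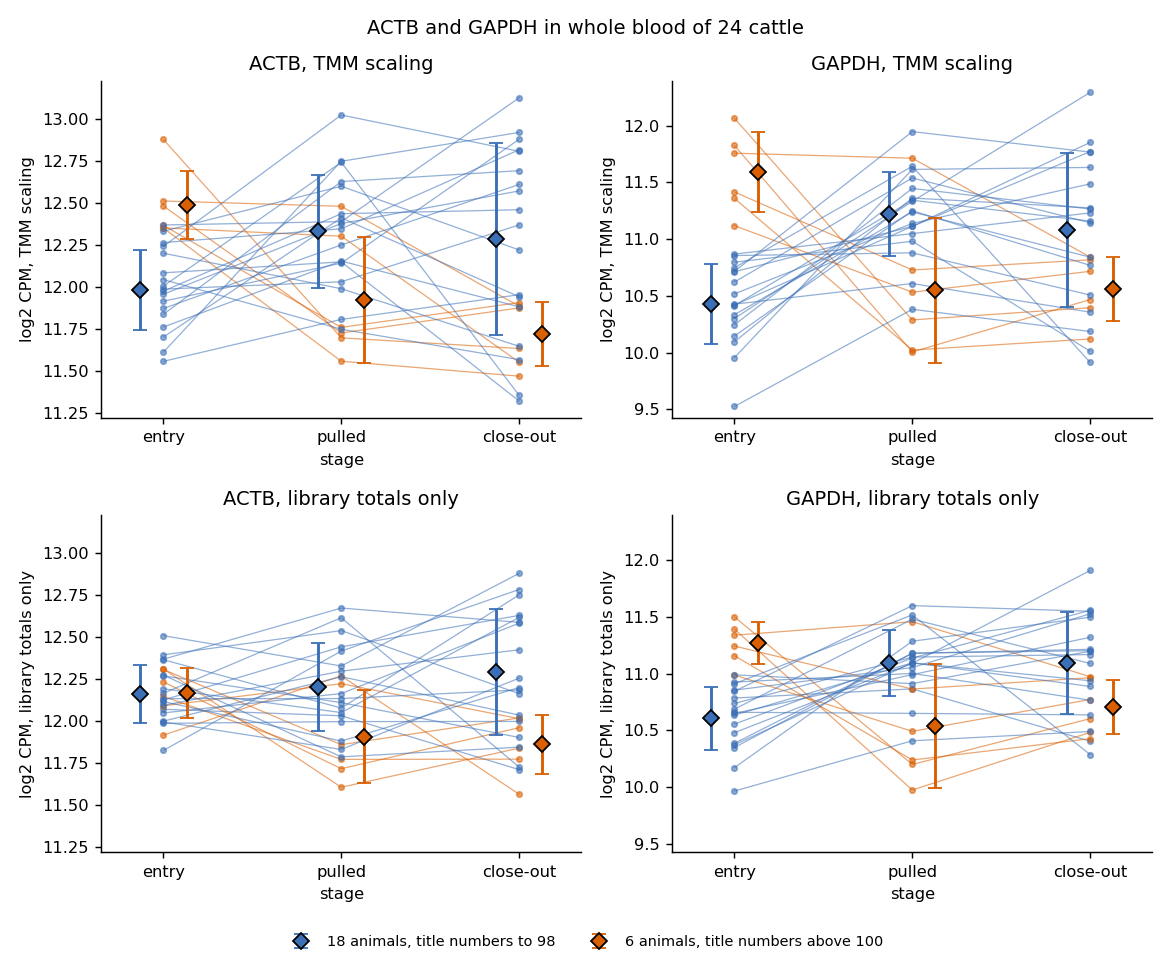
Level of ACTB and GAPDH (log2 CPM, y axis) in every library at entry, pulled and close-out (x axis), scaled by TMM in the upper panels and by library totals only in the lower panels; thin lines join the libraries of 1 animal, and diamonds with bars are set means ± SD (n = 18 and n = 6). With TMM, GAPDH of the 6 animals at entry (11.12 and above) lies over all 18 others (10.87 and below), and both genes are then lower in the 6 and higher in most of the 18; with library totals the entry levels of ACTB in the sets coincide.

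Tested at each stage (6 animals minus 18, edgeR with TMM), the sets differed in both genes at entry and did not pass afterwards. ACTB was 0.48 log2 units higher in the 6 at entry (SE 0.12, adjusted p = 0.000753) and GAPDH 1.14 higher (SE 0.15, adjusted p = 4.44e-07), where 71.8% of all genes were called. The median absolute difference of all genes was 0.729, so ACTB moved less than the median gene and GAPDH more. At pulled the differences were -0.43 for ACTB (adjusted p = 0.237) and -0.61 for GAPDH (adjusted p = 0.193), which became -0.95 without animal 2 (adjusted p = 0.0556). They were larger than those of 74.6% and 86.7% of genes. There 0% of genes were called in edgeR, 2322 had an unadjusted p under 0.05, and limma-voom called 0 (2157 unadjusted); leaving out the doubted libraries of animals 9 and 12, edgeR called 1008 genes, with neither ACTB (adjusted p = 0.116) nor GAPDH (adjusted p = 0.0796) among them. At close-out the differences were -0.67 for ACTB (adjusted p = 0.425) and -0.66 for GAPDH (adjusted p = 0.487), and 0.0158% of genes were called. These differences were larger than those of 97.1% and 96.9% of genes. With each of the 6 animals left out they ran from -0.712 to -0.631 for ACTB and from -0.721 to -0.590 for GAPDH. That of ACTB was larger in size than its called difference at entry. The missed threshold after entry therefore does not show that the sets were alike.

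Scaled by TMM, both genes rose after entry within the 18 animals. With library totals the rise of ACTB did not pass, as given below. From entry to pulled ACTB rose by 0.34 log2 units (16 of 18 animals, SE 0.12, edgeR adjusted p = 0.00889) and GAPDH by 0.77 (18 of 18, SE 0.14, adjusted p = 9.64e-06). These counts include the doubted pulled libraries of animals 9 and 12, which may not be those animals' own. In animal 9 GAPDH rose least, by 0.024, and ACTB was lower at pulled. From entry to close-out ACTB rose by 0.32 (SE 0.12, adjusted p = 0.0165; 13 of 18 higher) and GAPDH by 0.68 (SE 0.15, adjusted p = 0.000147; 14 of 18 higher). These comparisons called 70.6% and 64.3% of all genes. GAPDH moved further than 75.3% of genes from entry to pulled, and ACTB further than 36.8%. Between pulled and close-out ACTB differed by -0.02 (adjusted p = 0.909) and GAPDH by -0.10 (adjusted p = 0.646), where 28.1% of genes were called.

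Scaled by TMM, both genes fell after entry within the 6 animals. With library totals the fall of ACTB did not pass, as given below. From entry to pulled ACTB fell by 0.56 log2 units (SE 0.20, edgeR adjusted p = 0.0212) and GAPDH fell by 1.05 (SE 0.25, adjusted p = 0.00129), each lower in 6 of 6 animals. This call for ACTB was lost without animal 5, 6 or 7 (adjusted p = 0.0854, 0.0672 and 0.0583). From entry to close-out ACTB fell by 0.77 (SE 0.20, adjusted p = 0.00272) and GAPDH fell by 1.06 (SE 0.25, adjusted p = 0.00129), again lower in 6 of 6. In these comparisons 45.8% and 46.1% of all genes were called, and GAPDH moved further than 82.1% and 85.1% of genes. From pulled to close-out ACTB differed by -0.21 (adjusted p = 0.619) and GAPDH by -0.01 (adjusted p = 0.986), where 4.47% were called.

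With TMM, the difference between the sets in the change from entry passed the test for both genes. For pulled minus entry, the change in the 6 minus that in the 18 was -0.90 log2 units for ACTB (SE 0.23, edgeR adjusted p = 0.000791) and -1.82 for GAPDH (SE 0.29, adjusted p = 1.52e-06), where 68.4% of all genes were called. For close-out minus entry it was -1.09 for ACTB (SE 0.23, adjusted p = 0.00011) and -1.73 for GAPDH (SE 0.29, adjusted p = 7.57e-06), where 64.6% were called. All these comparisons share the entry libraries. For close-out minus pulled it was -0.19 for ACTB and 0.08 for GAPDH, each with an adjusted p of 1; 0% of genes were called by edgeR (261 at an unadjusted p under 0.05) and 0 by limma-voom (247 unadjusted). Other genes were also called by set and not over all animals. In no comparison of stages over all animals were 5237 genes called. Of these, 3814 (72.8%) were called for a difference between the sets in a change from entry. Such a call takes either direction, and whether the sets moved opposite ways in these genes was not counted. The share called for such a difference was much the same, 71.03% (5269 of 7418), among genes that were called over all animals.

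**Figure D2:**
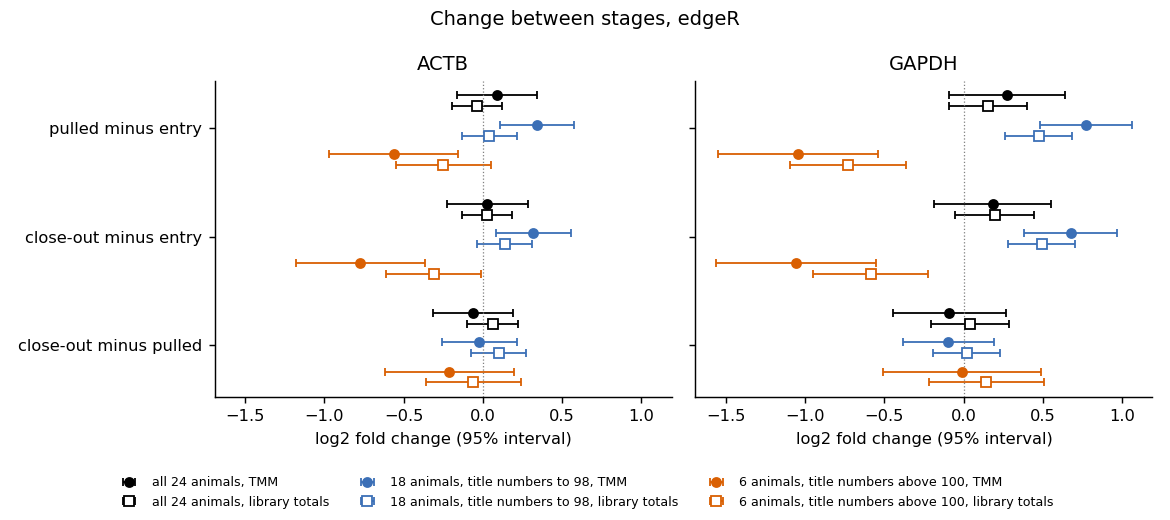
Log2 fold change between stages (x axis, points with 95% intervals from edgeR) of ACTB and GAPDH for the 3 pairs of stages (y axis), in all 24 animals, the 18 and the 6, with TMM (filled circles) and library totals only (open squares). The changes from entry of the 18 and the 6 lie on opposite sides of 0 and those of all animals lie between them, as for GAPDH from entry to pulled at 0.77, -1.05 and 0.28; with library totals the intervals of ACTB include 0 except for close-out minus entry in the 6.

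The scale of the libraries decided what was seen of ACTB. TMM sets each library by the bulk of its genes, and the library total sets it by all counted reads. At entry ACTB held 0.462% of all counts in the 6 animals and 0.462% in the 18 (SD 0.0468 and 0.0563). GAPDH held 0.248% ± 0.0307 (SD, n = 6) and 0.159% ± 0.0287 (SD, n = 18). The TMM factor at entry was 0.806 ± 0.0966 in the 6 and 1.14 ± 0.0876 in the 18, while mean totals were 17.3 M and 17.9 M, and the number of genes with a count was 14913 ± 213 against 15579 ± 335. The part of read composition in these set differences was not tested.

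With library totals only, ACTB at entry differed between the sets by 0.0011 log2 units (95% interval -0.19 to 0.20, edgeR adjusted p = 0.992) and GAPDH by 0.65 (adjusted p = 3.19e-05). On that scale the median gene was 0.52 lower in the 6 animals, so relative to the median gene ACTB was 0.52 higher and GAPDH 1.17 higher, against 0.53 and 1.19 with TMM. The mean share of ACTB in all reads was thus alike in the sets at entry, while relative to the typical gene ACTB was higher in the 6. For the changes after entry, ACTB passed within neither set with library totals: in the 18 it differed by 0.04 at pulled and 0.14 at close-out (adjusted p = 0.690 and 0.160), and in the 6 by -0.25 and -0.31 (adjusted p = 0.161 and 0.0738). Its difference between the sets passed for close-out minus entry (-0.45, adjusted p = 0.0214) and not for pulled minus entry (-0.29, adjusted p = 0.136). GAPDH passed on either scale: with library totals it rose by 0.47 and 0.49 in the 18 and fell by 0.73 and 0.59 in the 6 (adjusted p at most 0.00597).

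The ratio of ACTB to GAPDH counts in a library needs no scale, and it is what a PCR assay with both references would see of their agreement. The log2 ratio at entry was 1.39 ± 0.38, against 1.18 ± 0.31 among the pulled libraries and 1.19 ± 0.28 among those of close-out (SD, n = 24). Over the 72 libraries its SD was 0.33, and the linear ratio ran from 1.21 in animal 10 at close-out to 4.91 in animal 3 at pulled, a 4.05-fold range. The level of the ratio also holds the different lengths of the genes, so that only its differences between libraries are read. Between stages over all animals no difference passed: -0.22 for pulled minus entry (lower in 19 of 24 animals, adjusted p = 0.102), -0.20 for close-out minus entry (lower in 17 of 24, adjusted p = 0.0603) and 0.02 for close-out minus pulled (adjusted p = 0.835; two-sided sign-flip permutation tests, adjusted over 9 ratio tests). Without animal 3 the first passed, at -0.30 (adjusted p = 0.00522), and without animal 2, 3, 5, 6, 11 or 16 the second did.

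At entry the ratio was lower in the 6 animals, 0.90 ± 0.26 (SD, n = 6; from 0.53 to 1.25), than in the 18, 1.56 ± 0.24 (SD, n = 18; from 1.11 to 2.03). The difference of -0.66 is 1.58-fold (exact permutation test over 134596 divisions, p = 1.49e-05, adjusted p = 0.000134), and 5 of the 6 lay below all 18. At pulled the means were 1.37 ± 0.53 (n = 6) and 1.11 ± 0.16 (n = 18) (exact permutation test, adjusted p = 0.102), and at close-out 1.16 ± 0.12 and 1.20 ± 0.32 (adjusted p = 0.829). The pulled difference of 0.26 passed without animal 2, at 0.38 (exact permutation adjusted p = 0.0203), and it was 0.077 without animal 3 (adjusted p = 0.512). From entry to pulled the ratio was lower in 17 of 18 animals and higher in 4 of 6, a difference between the sets of 0.92 (exact permutation test, adjusted p = 0.000669). From entry to close-out it was lower in 15 of 18 and higher in 4 of 6, a difference of 0.61 (exact permutation test, adjusted p = 0.000736). From pulled to close-out the difference was -0.31 (exact permutation test, adjusted p = 0.102), and it passed without animal 2 or without animal 10, while without animal 3 it was -0.11 (adjusted p = 0.512).

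**Figure D3:**
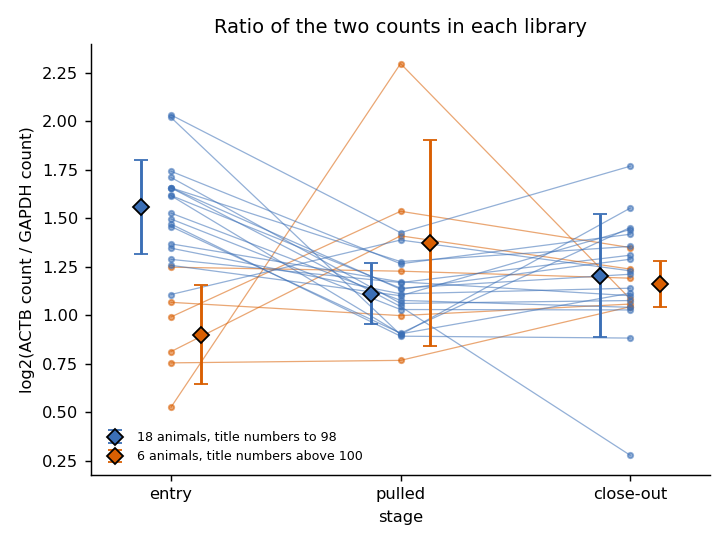
Log2 ratio of ACTB to GAPDH counts (y axis) in every library at entry, pulled and close-out (x axis); thin lines join the libraries of 1 animal, and diamonds with bars are set means ± SD (n = 18 and n = 6). At entry 5 of the 6 animals (mean 0.90) lie under all of the 18 (mean 1.56), and later the means are closer, with animal 3 highest at pulled and animal 10 lowest at close-out.

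Over all animals, ACTB spread further at close-out than at entry. The 24 animals had an SD of 0.318 log2 CPM at entry, which became 0.384 at pulled and 0.557 at close-out. The log2 ratio of SDs was 0.81 for close-out against entry (permutation test swapping stages within animals, adjusted p = 0.0296 over 6 spread tests), 0.54 for close-out against pulled (adjusted p = 0.0324) and 0.27 for pulled against entry (adjusted p = 0.359). The first was lost without animal 14, 20, 22 or 23, and the second without animal 1, 3, 12, 14, 20, 22 or 23 and without the doubted libraries (adjusted p = 0.0714). With library totals the SDs of ACTB were 0.165, 0.291 and 0.384, and pulled against entry passed (log2 ratio 0.818, adjusted p = 0.0283) in place of close-out against pulled (0.403, adjusted p = 0.186). Over all animals no comparison of spread passed for GAPDH, whose log2 ratios of SDs were -0.23, 0.06 and 0.28 (permutation test, adjusted p = 0.359, 0.845 and 0.359). These SDs mix the sets, whose means lie apart.

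Within the 18 animals both genes, scaled by TMM, spread further at close-out. There the SD of ACTB was 0.238 at entry, 0.337 among pulled libraries and 0.570 at close-out, and that of GAPDH 0.352, 0.374 and 0.682. For ACTB the log2 ratio of SDs was 1.26 for close-out against entry (permutation test, adjusted p = 0.0024) and 0.76 for close-out against pulled (adjusted p = 0.012). For GAPDH it was 0.95 (permutation test, adjusted p = 0.0114) and 0.87 (adjusted p = 0.00474). None of these 4 calls was lost on leaving out any 1 of the 18 animals, or the doubted libraries. With library totals, the call of ACTB for close-out against entry was kept (1.12, permutation adjusted p = 0.00174). The other 3 calls were lost on that scale, each with an adjusted p of 0.0793. In the 6 animals the SDs of ACTB were 0.202, 0.375 and 0.192 and those of GAPDH 0.351, 0.637 and 0.282, and no comparison passed (exact permutation tests, lowest adjusted p = 0.469). Swapping stages among only 6 animals gives few arrangements, so these tests could hardly pass after adjustment. They do not show equal spread in the 6. Whether the sets differ in these ratios was not tested. The SDs of the TMM factor over all animals were 0.155 at close-out, 0.0954 at pulled and 0.171 at entry, and its part in the spread was not tested.

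Set among all genes tested, neither gene was near the most stable with TMM. Over the 72 libraries the SD of ACTB was 0.43 log2 CPM, a factor of 1.35, and its highest library was 3.49-fold above its lowest; 34.8% of genes had a lower SD, and the median SD was 0.52. The SD of GAPDH was 0.61, a factor of 1.52, with a 6.81-fold range, and 62.1% of genes had a lower SD. Among genes at least as abundant, 2 of 5 had a lower SD than ACTB and 25 of 39 a lower one than GAPDH. With library totals the SDs were 0.29 and 0.42, with 11.9% and 32.7% of genes lower. Among genes at least as abundant, 1 of 5 was then lower than ACTB and 17 of 39 were lower than GAPDH. The edgeR biological coefficient of variation, which leaves out stage and animal, was 29.2% for ACTB and 41.4% for GAPDH, where the trend at their abundance was 33.2% and 32.7%. That model has no term for the sets, so this coefficient still holds their opposite changes after entry.

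Little of this variation was the stage itself. Stage held 1.37% of the sum of squares of ACTB and 5.39% of that of GAPDH, against a median of 9.30% over all genes. The animal held 36.1% and 27.2% (median 32.3%). All these shares are raw, not divided by the degrees of freedom of each term. The animal term has many more of these than stage, so noise alone gives it a larger share. The animal shares therefore do not show stable differences between animals. No share was tested against what noise would give. The change of the sets relative to each other over the stages held 23.1% for ACTB and 35.7% for GAPDH (median 12.9%), and the rest, which mixes each animal's own course with technical error, 39.4% and 31.8% (median 36.7%).

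**Figure D4:**
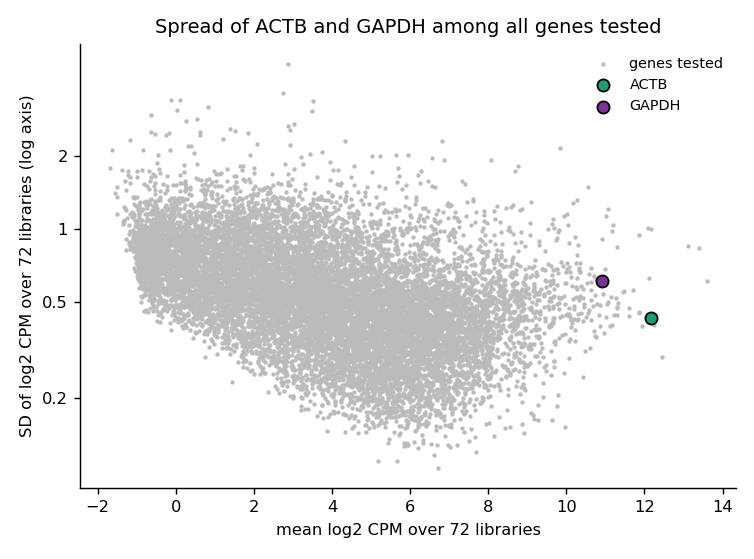
SD of log2 CPM over the 72 libraries (y axis, log scale) against mean log2 CPM (x axis) for all 12655 genes tested (grey), with ACTB and GAPDH as coloured points. ACTB (SD 0.43) and GAPDH (SD 0.61) lie at the abundant end and well above the lowest SDs there and at middle abundance.

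With TMM, an animal's level at entry was not shown to go along with its later levels. Intervals of r and values with library totals were not computed for these relations. Among the 18 animals, ACTB at entry correlated with ACTB at pulled at r = 0.176 (rho = 0.059) and at close-out at r = 0.101 (rho = 0.018), and GAPDH at 0.231 (rho = -0.15) and -0.026 (rho = -0.18), none past the test (permutation tests, lowest adjusted p = 0.438 over 16 relations). Without animals 9 and 12 the entry to pulled values were 0.241 and 0.323. From pulled to close-out over 24 animals, r was 0.492 for ACTB (rho = 0.463; permutation adjusted p = 0.0317 for r and 0.0558 for rho) and 0.530 for GAPDH (rho = 0.508; 0.0218 and 0.0331). Within the 18 alone these were 0.398 and 0.432 (permutation adjusted p = 0.150 and 0.131), and over 24 without the 2 animals farthest from the median they were 0.380 and 0.451.

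Within a stage the levels of both genes went together in the 18 animals and, after entry, over all 24. At entry, where the sets are apart, r of ACTB with GAPDH was 0.727 in the 18 (rho = 0.666; permutation adjusted p = 0.00179 and 0.0108; r = 0.622 without the 2 farthest animals). It was 0.696 in the 6 (exact permutation adjusted p = 0.150), where it rested on 2 animals (r = -0.11 without them). In the 6 at pulled r was 0.553 (exact permutation adjusted p = 0.343), and at close-out 0.942 (0.0317; rho = 0.771, 0.206). It was 0.822 at pulled (rho = 0.832; r = 0.751 without the 2 farthest) and 0.902 at close-out (rho = 0.903; r = 0.892) over 24 animals, with permutation p of 1e-05, the smallest that 100000 resamples can give. Both levels share the scale of their library: with library totals r was 0.501 among the 18 entry libraries, and over 24 animals 0.707 for pulled and 0.776 for close-out. In the 6 it was -0.17 for entry, 0.297 for pulled and 0.871 for close-out.

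Over all 72 libraries, which share animals and scale, the genes whose levels were most like ACTB were ENSBTAG00000013411 (r = 0.900) and ENSBTAG00000013607 (r = 0.853), and GAPDH stood at rank 3 (r = 0.848). Those most like GAPDH were ENSBTAG00000020645 (r = 0.949) and ENSBTAG00000007215 (r = 0.947), with ACTB at rank 71. The median r over all genes was -0.026 with ACTB and -0.012 with GAPDH. The 4 genes were also higher in the 6 animals than in the 18 at entry: mean log2 CPM was 10.28 against 9.50, 9.47 against 8.98, 10.59 against 9.80 and 9.19 against 7.91, in the order named. They were picked by r over these same libraries, so this likeness comes with the choice and is no further evidence. Of all genes tested, 71.8% were called between the sets at entry, in either direction.

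The effect of such a reference on other genes was measured by scaling every library to ACTB, to GAPDH or to their geometric mean in place of TMM, as a PCR assay does, and refitting the other 12653 genes. Over all animals the median gene moved by -0.17 log2 units from entry to pulled with ACTB as the scale, by -0.45 with GAPDH and by -0.31 with both. The calls went the same way, as this scaling sets them to: with TMM 2552 genes were higher and 2768 lower at pulled, with ACTB 1173 and 2549, with GAPDH 324 and 5555, and with both 632 and 4086. The share of calls that were higher was thus 31.5% with ACTB, 5.51% with GAPDH and 13.4% with both. From entry to close-out TMM gave 1295 higher and 1517 lower, ACTB 610 and 426, GAPDH 186 and 1284, and both 340 and 633. From pulled to close-out, where ACTB and GAPDH differed least within the sets, TMM called 3446 genes, 48.8% of them higher, ACTB 1712 (63.5% higher), GAPDH 1018 (58.8%) and both 1409 (62.7%).

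Within the sets the calls from entry to pulled went mostly one way. In the 18 animals, 1298 genes were called higher and 6319 lower with ACTB as the scale (17.0% higher). With GAPDH 9891 genes were called and 1.49% of them were higher, where TMM gave 4283 and 4651. In the 6 animals ACTB gave 6020 higher and 244 lower (96.1% higher) and GAPDH 9423 and 33 (99.7% higher), where TMM gave 3302 and 2491. By construction, dividing by a reference moves every gene by that reference's own change with the sign turned, so these shares restate the changes of ACTB and GAPDH given above as an assay would see them: the median gene moved by -0.37 with ACTB and -0.83 with GAPDH in the 18, and by 0.65 and 1.099 in the 6.

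**Figure D5:**
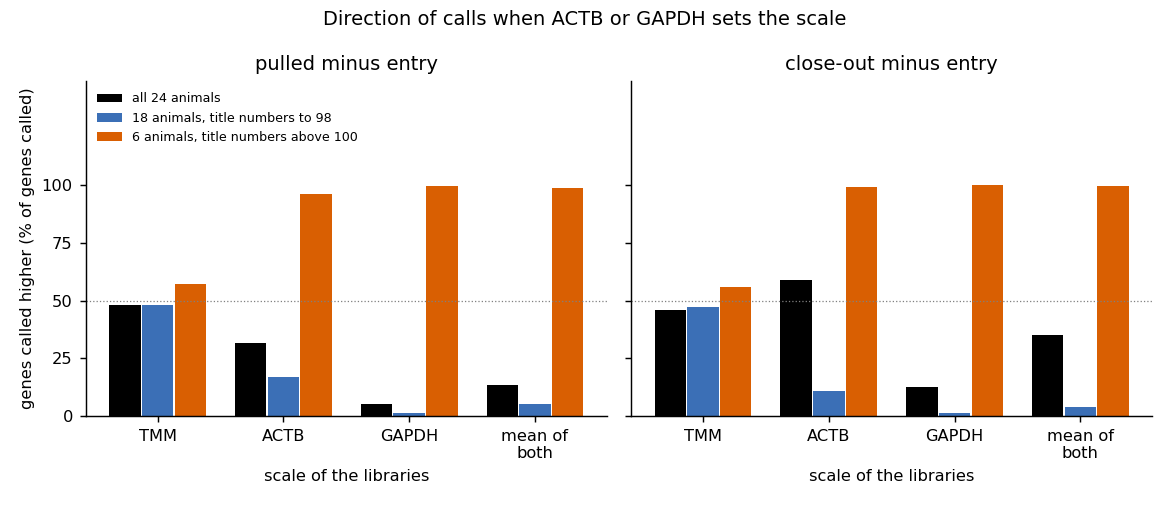
Genes called higher as a percent of all genes called (y axis, from 0) for pulled minus entry and close-out minus entry, with libraries scaled by TMM, ACTB, GAPDH or the geometric mean of both (x axis), in all 24 animals, the 18 and the 6. TMM gives shares near 50%, as 47.9% in the 18 at pulled, while GAPDH gives 1.49% in the 18 and 99.7% in the 6.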

How the data were processed

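The authors deposited 1 table of raw read counts per Ensembl gene for the 72 libraries. TopHat2, HTSeq and the build UMD3.1 are named per the submitters' processing notes; the sources used here give no version, annotation release or strand setting. All 72 columns matched a sample (0 did not). Gene names for the 2 identifiers were given with the question; 0 of 24616 identifiers matched the gene table at hand (ARS-UCD2.0, another build), so lists of other reference genes, glycolysis, actin partners and blood cell markers could not be used, and the labelled tissue was not checked by markers. No sequence is printed.

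Counts were fitted in R 4.3.3 with edgeR 4.0.16 (filterByExpr, TMM, quasi-likelihood, animal as a block, Benjamini-Hochberg over 12655 genes at 0.05). A further model added the sets. Libraries were paired by the labels' animal numbers. Log2 CPM used a prior count of 2. Stages and sets were compared in the ratio, spread and correlations by permutation tests in Python 3.11.15 (numpy 2.4.6, scipy 1.17.1). Alternatives were RLE scaling, library totals, limma-voom (limma 3.58.1), DESeq2 1.42.0, no block, 2 other filters, only the libraries of the stages compared, without the doubted libraries, and without each animal. The models were tested on simulated data.

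The genes, sets, tests and alternatives were chosen with earlier results of these data known; the ratio tests between sets in their changes, the scaling within sets and the spread within sets were added after seeing these values. Named besides ACTB and GAPDH are the 2 genes best correlated with each.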

Additional observations from a re-analysis of the deposited data

Results flagged for a closer look

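Among the 6 animals with title numbers above 100, ACTB of animal 5 at entry, 12.88 log2 CPM, lay apart from the other values: its gap to the next was 0.694 of the range, over Dixon's limit of 0.625 for 6 values. Of 9 groups of 6 examined this was 1, and chance flags about 1 in 20.

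The changes from entry differed between the 6 and the 18 animals by the test of the difference itself. With TMM the difference for ACTB was -0.90 log2 units at pulled and -1.09 at close-out, and for GAPDH -1.82 and -1.73 (edgeR, adjusted p from 1.52e-06 to 0.000791). For the ACTB to GAPDH ratio it was 0.92 at pulled and 0.61 at close-out (exact permutation tests). All of them use the same entry libraries.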

How the results depend on the processing

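Of the comparisons reported, 763 values under alternatives kept their direction and their side of the threshold, 22 lost and 13 gained a call, 25 changed sign and 2 moved, most of them with library totals or with 1 animal left out. Library totals turned uncalled values of the stages over all animals (ACTB -0.036 for pulled minus entry and 0.0615 for close-out minus pulled, GAPDH 0.0393 for close-out minus pulled) and of close-out minus pulled within the 18 (ACTB 0.0994, GAPDH 0.0182) and within the 6 (GAPDH 0.143; 0.0218 with limma-voom). They ended the calls of ACTB within the 18 (0.0399 at pulled, 0.139 at close-out), within the 6 (-0.25 and -0.309), for the difference of the sets at pulled (-0.29) and at entry (0.0011). They moved the SD over 72 libraries to 0.291 for ACTB and 0.424 for GAPDH. For spread they gave 0.818 (ACTB pulled against entry, then called), 0.403 (ACTB close-out against pulled, call lost) and 0.157 (GAPDH pulled against entry, sign turned). Without the doubted pulled libraries the ratio for close-out minus pulled was -0.00715 and the ACTB spread for close-out against pulled 0.50 (call lost). Within the 18 alone the GAPDH spread was 0.0843 for pulled against entry (sign turned), 0.952 for close-out against entry and 0.868 for close-out against pulled (both then called). The cause of these moves was not tested.

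With each animal left out, ranges were -0.0269 to 0.085 for ACTB close-out minus entry, -0.678 to -0.458 for ACTB pulled minus entry in the 6 and -0.095 to 0.179 for GAPDH close-out minus pulled in the 6. For the ratio they were -0.303 to -0.177 (pulled minus entry), -0.232 to -0.148 (close-out minus entry), -0.0103 to 0.0708 (close-out minus pulled), 0.0767 to 0.383 (sets at pulled) and -0.403 to -0.105 (sets, close-out minus pulled). For spread they were 0.723 to 1.00 (ACTB close-out against entry), 0.432 to 0.644 (ACTB close-out against pulled) and -0.0875 to 0.206 (GAPDH close-out against entry).

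Without the replicate block for the paired animals, ACTB differed by 0.13, 0.10 and -0.03 and GAPDH by 0.29, 0.24 and -0.05 (adjusted p from 0.178 to 0.895), which changed no call. Counts of genes called moved by over 1.5 times as follows: 0 at pulled between the sets became 1008 without the doubted libraries, 27 without animal 4 and 4 without animal 7; 2 at close-out became 0 with library totals or without animal 3, 4, 5 or 6, and 5 with limma-voom; 2812 for close-out minus entry became 4249 without animal 2. Within the 6, 5837 for close-out minus entry became 3322 without animal 2, 5793 for pulled minus entry became 3821 without animal 3, and 566 for close-out minus pulled became 900 with library totals and 234, 276 and 355 without animals 2, 5 and 6.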
